A study of Homo sapiens with 8 samples.

Results

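Chromosome 17 carried 5144 of the 65646 intervals in the 4 deposited G4 ChIP-seq lists of K562 and HepG2 cells. The members were chosen by position alone, as every interval of any list on this chromosome, but the chromosome itself and a block of 1 Mb at 79-80 Mb were selected on their interval counts in the K562 and HepG2 lists. Those counts, and the balance between the cell lines, are therefore described without a test. K562 cells derive from a chronic myelogenous leukemia and HepG2 cells from a hepatocellular carcinoma. Both were grown asynchronously and received no treatment. The labels name 3 G4 ChIP libraries and 1 input library for each line. Every replicate had been merged by the authors before deposition, into a high-confidence list (at least 5 of 8 replicates in K562, 6 of 9 in HepG2) and a lower-confidence list (at least 2 of 8 or 2 of 9). The study describes 3 independent experiments per line, each with 2 to 3 technical replicates. The replicates counted are thus not all independent, and a lower-confidence interval can rest on 1 experiment. An interval of a high-confidence list is called a peak here. With a single merged list per line and threshold, a difference between the cells and a difference in how their lists were made cannot be told apart. The lists hold no expression, so the identity of the cells could not be checked on marker genes.

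G-quadruplexes (G4s) are four-stranded DNA structures built from stacked planes of guanines, and a strand can fold into one where several runs of G follow each other closely. In human chromatin they are known for their frequency in nucleosome-depleted, GC-rich promoters of active genes. G4 ChIP-seq recovers them from fragmented chromatin with BG4, an antibody fragment that recognises the folded structure. Human chromosome 17 is a gene-rich chromosome that holds BRCA1, ERBB2, the HOXB homeobox cluster and the type I keratin cluster. It had 15.3 protein-coding genes per Mb, more than any of the other 22 chromosomes compared except chromosome 19, with 26.5.

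The sequences that carry the comparisons below were read from the GRCh37 (hg19) assembly. Each is the shortest G4 motif in its peak, defined as 4 runs of at least 3 G separated by loops of 1 to 7 bases on either strand, and capitals mark the runs of G. A longer run of G was allowed to count as more than 1 run. The names give the coding gene with the nearest start site, which need not contain the peak, and a motif may lie on either side of that site. The distal peak named for SOX9 lies 292425 bp from the SOX9 start, in an intron of another annotated transcript. The first 4 lie in peaks found in both cell lines, at the most motif-rich and the widest peaks and at genes of lipid synthesis.
SREBF1 promoter peak, chr17:17727025-17727041, minus strand, both lines: GGGcGGGGcGGGGcGGG
GSDMA promoter peak, chr17:38109586-38109605, plus strand, both lines: GGGGcGGGGcGGGatcGGGG
KPNB1 promoter peak, chr17:45727273-45727291, minus strand, both lines: GGGaGGGagcgaGGGaGGG
ACLY promoter peak, chr17:40075456-40075475, plus strand, both lines: GGGtGGGGagatGGGccGGG
The next 3 lie in K562 peaks without any HepG2 interval, and the last 4 in HepG2 peaks without any K562 interval.
HOXB9 promoter peak, chr17:46704031-46704047, minus strand, K562 only: GGGaGGGgGGGaccGGG
SOCS3 promoter peak, chr17:76356330-76356348, plus strand, K562 only: GGGGcaGGGaccGGGaGGG
MAFG alternative promoter, chr17:79881517-79881543, minus strand, K562 only: GGGccaGGGagtgcGGGcgcggcGGGG
ALDH3A2 promoter peak, chr17:19551970-19551994, plus strand, HepG2 only: GGGGagaGGGcGGGGGccgcgtGGG
ASGR2 promoter peak, chr17:7018177-7018198, plus strand, HepG2 only: GGGGtGGGGGcaGGGGacGGGG
ETV4 promoter peak, chr17:41608181-41608200, minus strand, HepG2 only: GGGGGGaGGGcGGGaaGGGG
SOX9 distal, intronic, chr17:70409776-70409798, minus strand, HepG2 only: GGGaGGGcagaaGGGagtctGGG

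The chromosome held 595 K562 peaks and 735 HepG2 peaks, which is 6.46% and 8.35% of the high-confidence lists. The lower-confidence lists added many more intervals in HepG2, 2581 (9.09% of that list), than in K562, 1233 (6.41%). Per Mb of called sequence there were 7.65 K562 and 9.45 HepG2 peaks, against medians of 3.00 and 2.85 over the other chromosomes. Only chromosome 19 was denser in HepG2, in both lists. K562 contributed 44.7% of the peaks of both lines together and 32.3% of the lower-confidence intervals. Over the other chromosomes the first of these shares ran from 34.6% on chromosome 14 to 78.3% on chromosome X, and chromosome 17 ranked 19 of 23 from the highest. The peaks were short: the median width was 185 bp in K562 and 175 bp in HepG2, and the widest measured 728 and 788 bp. Their GC content was 71.0% in K562 and 64.1% in HepG2 at the median, whereas the chromosome as a whole has 45.5%. No peak height, read count or replicate identity comes with an interval, so depth is unknown and no spread between replicates could be computed. All intervals of shares below are 95% Wilson intervals and cover the counting of peaks only.

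Peaks were then divided by what the other cell line had at the same place. A peak was common where it shared at least 1 bp with a peak of the other line, and in 1 line only where it met no interval, of either confidence, of the other line. For K562, 345 of 595 peaks were common (58.0%, 54.0 to 61.9), beside 51.1% of the whole K562 list. A further 141 (23.7%) met only a HepG2 lower-confidence interval, and 109 (18.3%, 15.4 to 21.6) met none, beside 24.4% of the whole list. In HepG2, 344 of 735 peaks were common (46.8%, 43.2 to 50.4), beside 53.7% of the whole HepG2 list. Another 96 (13.1%) met only a K562 lower-confidence interval, and 295 (40.1%, 36.7 to 43.7) met none, beside 32.9% of the whole list. The chromosome thus had a smaller part of peaks in K562 only and a larger part in HepG2 only than the lists as a whole. It ranked 18 of 23 for the first share and 4 of 23 for the second, where chromosome 20 had the highest HepG2 share (46.9%) and chromosome X the lowest (7.32%). This contrast between the lines is what the chromosome was chosen for and carries no test.

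**Figure D1:**
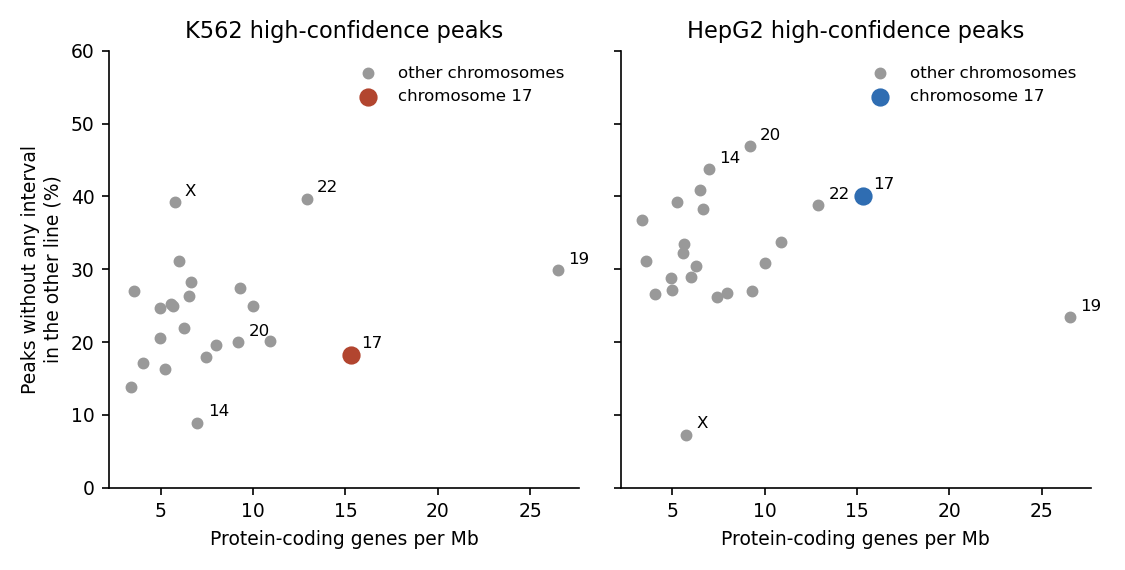
Each point is a chromosome (Y left out), placed by its protein-coding genes per Mb (x axis) and by the share of its high-confidence peaks without any interval in the other line (y axis, %), for K562 on the left and HepG2 on the right. Chromosome 17 (coloured) lies at 18.3% in K562 and 40.1% in HepG2.

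Promoters were defined as 1 kb upstream of each annotated transcription start site (TSS). They were touched by 491 of the 595 K562 peaks (82.5%, 79.3 to 85.4) and by 470 of the 735 HepG2 peaks (63.9%, 60.4 to 67.3). On the other chromosomes the shares were 81.0% and 70.1%. Peaks in 1 line only touched promoters less often, and the chromosome was chosen for their part, so these shares are given without a test. By kind of HepG2 peak, the shares on chromosome 17 and elsewhere were 90.7% and 91.8% for common peaks. For peaks in HepG2 only they were 32.2% and 30.9%. Peaks that met only a K562 lower-confidence interval had shares of 65.6% (55.7 to 74.4) and 76.0%. Chromosome 17 ranked 19 of 23 for its HepG2 promoter share, and the other chromosomes ranged from 56.3% on chromosome 20 to 92.7% on chromosome X. Peaks of a list are not replicates of a cell line, and neighbouring peaks can share a promoter, so the tests that follow describe the lists.

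Common peaks were promoter peaks in both lines. In K562, 313 of 345 common peaks touched a promoter (90.7%), against 64 of 109 peaks in K562 only (58.7%), an odds ratio of 6.88 (4.06 to 11.6, Fisher's exact test, two-sided, adjusted p = 3.91e-12 over 16 tests). In HepG2 the shares were 312 of 344 (90.7%) and 95 of 295 (32.2%), an odds ratio of 20.5 (13.2 to 31.8, Fisher's exact test, adjusted p = 1.73e-55). Peaks that met only a lower-confidence interval of the other line lay between, at 80.9% in K562 and 65.6% in HepG2. The common peaks were also wider, with a median of 225 bp in each line against 138 bp for K562-only and 136 bp for HepG2-only peaks. Among peaks of 150 to 250 bp the odds ratios were 8.48 in K562 and 22.9 in HepG2, so the difference was as large within that band of widths. The same contrast on the other chromosomes did not differ detectably, with ratios of odds ratios (chromosome 17 over the others) of 0.758 (0.440 to 1.31) in K562 and 0.817 (0.517 to 1.29) in HepG2.

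**Figure D2:**
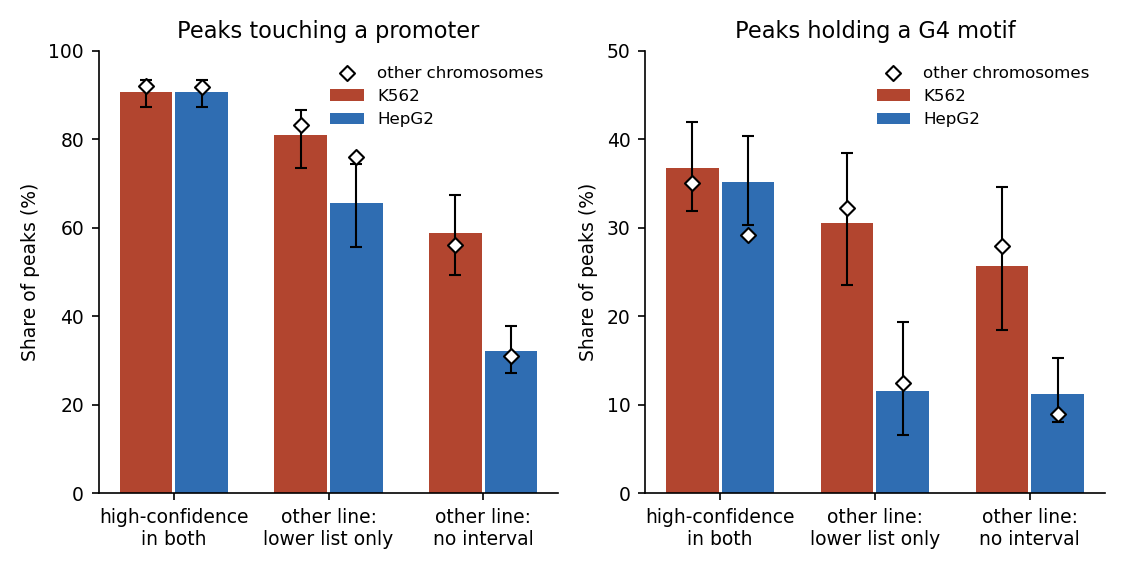
Bars give the share of chromosome 17 peaks (y axis, %) that touch a promoter (left) or hold a G4 motif (right) for K562 and HepG2, by what the other line has at the same place (x axis), with 95% Wilson intervals. White diamonds give the same share on all other chromosomes. In HepG2 the promoter share falls from 90.7% for common peaks to 32.2% for peaks of HepG2 only.

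Peaks in 1 line only lay farther from the starts of genes. Of the HepG2-only peaks, 133 of 295 (45.1%) had their centre in an intron, against 16 of 344 common HepG2 peaks (4.65%). In K562 these counts were 24 of 109 and 17 of 345 (4.93%). The median distance from the peak centre to the nearest protein-coding TSS was 86 bp for common K562 peaks and 99 bp for common HepG2 peaks. It was 1876 bp for K562-only and 6113 bp for HepG2-only peaks. HepG2-only peaks lay over 10 kb from such a TSS in 114 cases (38.6%), against 24 common ones (6.98%).

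Sequence followed the same division in HepG2. A G4 motif lay in 198 of the 595 K562 peaks (33.3%) and in 165 of the 735 HepG2 peaks (22.4%), beside 32.5% and 20.5% on the other chromosomes. Motifs were shared evenly between the strands: 86 K562 peaks held them on the plus strand alone, 91 on the minus strand alone and 21 on both, and in HepG2 the counts were 70, 77 and 18. Of the common HepG2 peaks 121 (35.2%) held a motif, against 33 of the HepG2-only peaks (11.2%), an odds ratio of 4.31 (2.82 to 6.58, Fisher's exact test, adjusted p = 3.91e-12). In K562 the shares were 36.8% and 25.7%, and the difference missed the threshold after adjustment (odds ratio 1.69, 1.04 to 2.73, Fisher's exact test, adjusted p = 0.0739). The median GC content was 70.6% for common and 67.2% for K562-only peaks, but 70.2% and 57.9% for common and HepG2-only peaks. Scanning the lower-confidence interval around each peak raised the shares with a motif to 49.6% of the K562 and 37.4% of the HepG2 peaks. The shares for common and K562-only peaks were then 50.1% and 46.8% (odds ratio 1.14, 0.743 to 1.76).

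The edges of a peak can cut a motif. The lower-confidence K562 interval at chr17:35766762-35767433, between ACACA (acetyl-CoA carboxylase, which commits acetyl-CoA to fatty acid synthesis) and TADA2A (a subunit of histone acetyltransferase complexes), contained 3 separate peaks. The middle one, chr17:35767050-35767071, measured 22 bp, and the motif of the wider interval at chr17:35767061-35767075 (plus strand) ran 4 bases past its end. It is the shortest possible form of the motif, with loops of 1 base.
TADA2A and ACACA shared promoter: GGGcGGGcGGGcGGG
The K562 interval at DCXR, chr17:79995128-79995749, was also broken into 3 peaks, of which 1 was common, 1 met only a lower-confidence HepG2 interval and 1 met none. In HepG2, the interval at CD68, chr17:7482533-7483019, was broken into 4 peaks of 62, 11, 31 and 10 bp without a motif, and the one at UNK, chr17:73780629-73781406, into 4 peaks of 65, 227, 4 and 177 bp. In all, 36 K562 and 61 HepG2 peaks on the chromosome were shorter than 50 bp, and such peaks count here like any other.

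The widest K562 peak was chr17:45726634-45727361, 728 bp across the start of KPNB1, which encodes the nuclear import receptor importin beta. HepG2 had a peak of 656 bp at the same place, and both hold 3 motifs, among them the KPNB1 sequence above. The peak richest in motifs stood upstream of GSDMA, a gene for a pore-forming gasdermin of skin, with 9 motifs in 711 bp in K562 and 8 in 643 bp in HepG2. SREBF1, the transcription factor that switches on lipid synthesis genes, had 5 motifs in 294 bp in K562 and in 340 bp in HepG2. The centres of these peaks lay 118 to 164 bp from the nearest coding TSS. The widest HepG2 peak, chr17:25659510-25660297 with 788 bp, held no motif and was 38531 bp from the nearest coding TSS, that of WSB1, although it lay in the 1 kb upstream of another annotated transcript.

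Along the chromosome, the count was taken in 17 steps of 5 Mb numbered from the end of the short arm, the last one shorter. The step from 40 to 45 Mb had the most K562 peaks (82), and it had 88 HepG2 peaks. The step from 70 to 75 Mb had the most HepG2 peaks (98) beside 54 of K562. The step from 75 to 80 Mb had the most lower-confidence intervals in both lines, 531 in HepG2 and 172 in K562. Fewest were found from 10 to 15 Mb (6 K562 and 7 HepG2 peaks), from 20 to 25 Mb (7 and 6), which contains the centromere, and from 50 to 55 Mb (8 and 8). These 3 steps hold 23, 9 and 15 protein-coding genes, whereas the step from 35 to 40 Mb holds 141. Numbers of genes and of peaks did not run in parallel throughout: from 30 to 35 Mb there were 0.284 K562 and 0.176 HepG2 peaks per gene, and from 75 to 80 Mb 0.901 and 1.07.

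**Figure D3:**
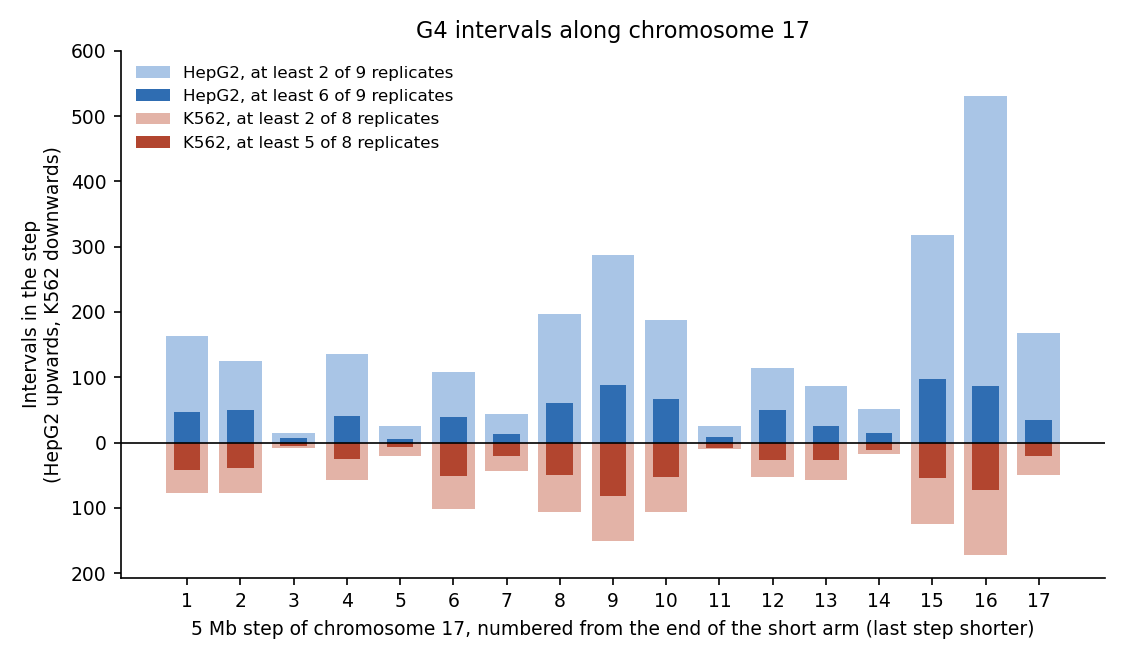
Number of intervals in each 5 Mb step of chromosome 17 (x axis, numbered from the end of the short arm), HepG2 upwards and K562 downwards. Pale bars are the lower-confidence lists and dark bars the high-confidence lists. HepG2 lower-confidence intervals reach 531 in step 16, where K562 has 172, and fall to 14 in step 3.

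The balance of the lines changed along the map. K562 supplied 61.8% of the peaks from 30 to 35 Mb (45.0 to 76.1, 21 against 13) and 56.7% from 25 to 30 Mb (46.4 to 66.4, 51 against 39). It supplied 35.5% from 70 to 75 Mb (28.4 to 43.4) and 35.1% from 55 to 60 Mb (25.3 to 46.2). In the lower-confidence lists its share ran from 50.6% (40.3 to 60.8) from 30 to 35 Mb to 22.9% in the last step (50 against 168 intervals). In the last 3 steps, from 70 Mb on, HepG2 had 318, 531 and 168 lower-confidence intervals where K562 had 124, 172 and 50.

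The short arm (22.3 Mb, 347 protein-coding genes) carried 119 K562 and 150 HepG2 peaks, and the long arm (55.9 Mb, 842 genes) 476 and 585. K562 supplied 44.2% of the peaks on the short and 44.9% on the long arm. Peaks in HepG2 only were 28.7% of the HepG2 peaks on the short arm and 43.1% on the long arm. Promoter peaks were more frequent on the short arm in HepG2, at 76.0% against 60.9% (odds ratio 2.04, 1.35 to 3.07, Fisher's exact test, adjusted p = 0.00157). Among HepG2 peaks of 150 to 250 bp this difference no longer passed the test (odds ratio 1.44, 0.721 to 2.89, Fisher's exact test, adjusted p = 0.572). In K562 the shares were 89.1% and 80.9% and did not pass (odds ratio 1.93, 1.04 to 3.58, Fisher's exact test, adjusted p = 0.0750). The arms differed in their part of HepG2-only peaks, so the HepG2 test cannot separate the arm from the kind of peak. By kind, the HepG2 promoter shares on the short and long arm were 92.5% and 90.2% for common peaks. They were 81.5% and 59.4% for peaks that met only a K562 lower-confidence interval, and 41.9% and 30.6% for HepG2-only peaks. The motif share of the arms did not differ detectably in either line, with odds ratios of 0.841 (0.544 to 1.30) in K562 and 0.922 (0.596 to 1.43) in HepG2.

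The block from 79 to 80 Mb held 288 HepG2 lower-confidence intervals, 11.2% of those of the chromosome, and 92 K562 ones. Its neighbours just outside held 64 HepG2 and 15 K562 intervals (78 to 79 Mb) and 157 and 45 (80 to 81 Mb). Among blocks of 1 Mb in the genome it ranked 2 in the HepG2 lower-confidence list, 4 in the HepG2 peaks and 9 in both K562 lists. Its high-confidence counts were nearly equal, 39 in K562 and 38 in HepG2, and 18 of each were common. The block from 73 to 74 Mb had more HepG2 peaks (47) with 140 lower-confidence intervals. In the block 252 of the 288 HepG2 intervals (87.5%, 83.2 to 90.8) contained no peak, against 71.5% elsewhere on the chromosome. Only 18.4% of them met a K562 lower-confidence interval, against 31.5% elsewhere. These values were taken from the contrast for which the block was chosen.

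Promoters were touched by 100 of the 288 HepG2 intervals in the block (34.7%) and by 1014 of 2293 elsewhere on the chromosome (44.2%). Among intervals without a peak, the shares were 30.2% in the block and 35.8% elsewhere. In K562 they were touched by 45 of 92 (48.9%) and 773 of 1141 (67.7%), and among intervals without a peak the shares were 28.1% and 54.5%. For intervals with a peak, the shares in the block and elsewhere were 66.7% and 65.4% in HepG2 and 82.9% and 83.0% in K562. Intervals without a peak touched promoters less often, and the choice of the block favoured such intervals, so the promoter share carries no test. Their part in the difference was not tested. The motif share was 18.8% in the block and 18.9% elsewhere in HepG2, and 29.3% and 30.9% in K562.

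A few genes of the block contained many of its HepG2 intervals. Length alone did not mark them, since NPLOC4 (91583 bp) contained 1 HepG2 lower-confidence interval and SLC38A10 (50737 bp) 2. BAHCC1 (chr17:79369257-79433357), which encodes a chromatin protein with a bromo-adjacent homology domain, contained the centres of 36 HepG2 and 7 K562 lower-confidence intervals. BAIAP2, an adaptor between small GTPases and the actin cytoskeleton, contained 32 and 11. AATK, a kinase gene that overlaps the end of BAIAP2 on the opposite strand, contained 31 and 2. ASPSCR1 (chr17:79934683-79975282), whose product tethers glucose transporter vesicles, contained 26 and 2, and CEP131, for a centrosomal protein, 16 and 0. Of all coding genes on the chromosome, only SEPTIN9, a cytoskeletal septin gene of 220 kb, contained more HepG2 intervals (37, beside 10 of K562) than these first 4. At high confidence BAHCC1 contained 0 K562 and 2 HepG2 peaks and BAIAP2 5 and 4, so the excess was mostly one of lower-confidence intervals. ASPSCR1 differed, with 6 HepG2 peaks and 1 of K562. All 6 had no K562 interval, the widest of them at chr17:79958625-79959092 in an intron, and the single K562 peak stood at its start, chr17:79935259-79935517, with 2 motifs.

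**Figure D4:**
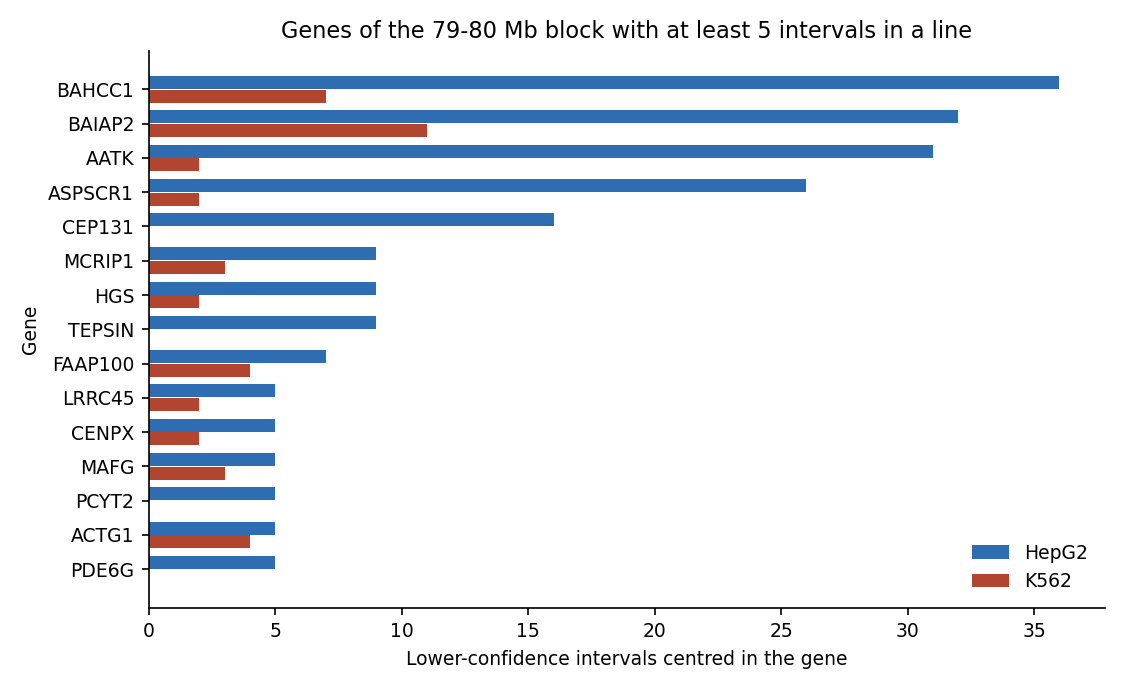
Lower-confidence intervals centred in each gene (x axis) of the 79-80 Mb block, for genes with at least 5 in a line, with HepG2 in blue and K562 in red. BAHCC1, BAIAP2, AATK and ASPSCR1 have 26 to 36 in HepG2 and 2 to 11 in K562.

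At the promoters of the block, 29 of the 40 protein-coding genes starting in it had the same state in both lines (72.5%), beside 73.7% on the chromosome and 72.5% of all coding genes. Of the 40, 22 had a peak of both lines in the 1 kb upstream (55.0%), beside 23.4% of all coding genes, and 6 had no interval, beside 43.5%. The block was chosen on its interval counts, on which these shares depend, so they carry no test. Among the 22 were ACTG1 (gamma-actin), ALYREF (mRNA export), P4HB (protein disulfide isomerase), SLC25A10 (the mitochondrial dicarboxylate carrier) and PCYT2 (phosphatidylethanolamine synthesis). A K562 peak without any HepG2 interval was found at SIRT7, a nuclear sirtuin deacylase, and at RAC3, a small GTPase of the Rac family. The RAC3 peak, chr17:79989874-79990141, held 1 motif and the SIRT7 peak, chr17:79875990-79876066, none. MAFG, a small MAF protein that pairs with the erythroid factor NF-E2, had a common peak at its main start and a K562-only peak of 339 bp at an alternative start. No coding gene of the block had a HepG2 peak without a K562 interval. GCGR, the glucagon receptor of liver, had only a HepG2 lower-confidence interval in the 1 kb upstream. The gene itself contained 4 HepG2 and 1 K562 lower-confidence intervals.

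Over the whole chromosome, 445 of 1189 protein-coding genes (37.4%) had a K562 peak in the 1 kb upstream, beside 34.6% of all coding genes. For HepG2 it was 425 (35.7%), beside 29.6% of all coding genes. Both lines had a peak at 338 genes (28.4%, 25.9 to 31.1, against 23.1% on the other chromosomes), and 447 genes (37.6%) had no interval of either line. The chromosome was selected on its interval counts, on which these gene shares depend, so they carry no test. A K562 peak without any HepG2 interval stood at 20 genes (1.68%), beside 3.17% of all coding genes. A HepG2 peak without any K562 interval stood at 29 (2.44%), beside 2.26%. The K562 genes included HOXB9, a homeobox factor, CBX2, a Polycomb subunit, and ICAM2, an adhesion molecule of blood and endothelial cells. They also included GALK1, for galactokinase, and genes known for muscle or nerve, such as SCN4A, ATP1B2 and MYL4. The HepG2 genes included ASGR1, ASGR2 and ALDH3A2, SLC47A1, a cation exporter of liver and kidney, LGALS3BP, a secreted galectin-binding glycoprotein, PDK2, a pyruvate dehydrogenase kinase, and SOX9. The same 29 also held CD7, of the blood cell list below, and genes such as BRIP1, DHX33, COASY, TUBG2, COX11 and PLEKHM1. The genes named are only a part of the 29.

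Genes were then read in lists of known function, again by the 1 kb upstream of their TSSs. The lists were compiled with earlier results of these data known. As background, a HepG2 peak without a K562 peak stood at 87 of the 1189 coding genes of the chromosome (7.32%), beside 6.16% of all coding genes. A K562 peak without a HepG2 peak stood at 107, beside 11.2% of all coding genes. Of 29 liver and lipid genes on the chromosome, 11 had a peak of both lines, 7 had a HepG2 peak and no K562 peak, and none had it the other way round. Among the 11 were enzymes, carriers and regulators of general metabolism: SREBF1, FASN (fatty acid synthase), ACLY (ATP citrate lyase), ACACA, PCYT2, MLX, TMEM97, SLC25A10, SLC25A11 and SLC16A13. At ACLY the peaks of both lines, 321 bp in K562 and 295 bp in HepG2, hold 3 motifs each, among them the ACLY sequence above. The 7 with HepG2 peaks only were ASGR1 and ASGR2 (the subunits of the hepatocyte asialoglycoprotein receptor), ALDH3A2 (fatty aldehyde dehydrogenase), ACADVL (very long-chain acyl-CoA dehydrogenase), SHBG (a hormone-binding globulin secreted by liver), PEMT (phosphatidylcholine synthesis) and SLC16A3 (a lactate carrier). The last 4 had a lower-confidence K562 interval, and the first 3 had none. The ALDH3A2 peak, chr17:19551887-19552395, was the second widest HepG2-only promoter peak with 509 bp and holds 2 motifs. The ASGR1 peak, chr17:7082958-7083223, has none. In the 1 kb upstream, secreted liver products such as SERPINF1, SERPINF2 and VTN had only HepG2 lower-confidence intervals. APOH and G6PC1 had no interval of either line there. Peaks outside promoters are not part of these counts. A HepG2-only peak of 426 bp, chr17:1639634-1640059, lay 6284 bp from SERPINF2. A K562-only peak of 309 bp, chr17:42084165-42084473, lay 2194 bp from NAGS, another gene of the list.

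Of 29 blood cell genes, 18 had no interval of either line (62.1%), beside 37.6% of the coding genes of the chromosome and 43.5% of all coding genes. Among the 18 were MPO and EPX (granule peroxidases), SLC4A1 (the red cell anion exchanger), GP1BA (a platelet receptor) and CD79B (a B cell receptor subunit). K562 peaks without a HepG2 peak stood at ITGA2B, the platelet integrin subunit, at ICAM2 and at SOCS3, an inhibitor of cytokine signalling. HepG2 peaks without a K562 peak stood at CD68 and CD7, markers of macrophages and of T cells. The ITGA2B peak, chr17:42462679-42462968 with 2 motifs, met a HepG2 lower-confidence interval, and the ICAM2 peak had no motif. At SOCS3 HepG2 also had a lower-confidence interval in the promoter, but the K562-only peak did not meet it. K562 had a lower-confidence interval in the CD68 promoter and none at CD7. Of the 45 cancer genes, 17 (37.8%) had a peak of both lines, including ERBB2, BRCA1, STAT3, RARA, TOP2A, BIRC5 and GRB2. This stands beside 28.4% of the coding genes of the chromosome and 23.4% of all coding genes. A K562 peak without a HepG2 peak stood at 7: PER1, MAP2K4, NCOR1, NF1, SUZ12, STAT5B and CLTC. A HepG2 peak without a K562 peak stood at 8, among them YWHAE, GRB7, ETV4, BRIP1, PRKAR1A, SOX9 and H3-3B. In all 7 K562 cases HepG2 had a lower-confidence interval, and in 5 of the 8 HepG2 cases K562 had one, the other 3 being GRB7, BRIP1 and SOX9.

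Of the lists read, those of genes that all cells use had the largest shares with peaks of both lines, 61.1% and 52.2%, against 37.9% of the liver and lipid genes. The share was 28.4% over the coding genes of the chromosome and 23.4% over all coding genes. Of 18 ribosomal protein and translation factor genes, 11 had peaks of both lines and only RPL23 had no interval. Of 23 genes of the proteasome, RNA polymerase II regulation and splicing, 12 had peaks of both lines and each had at least a lower-confidence interval in HepG2. DDX5 and SRSF2 belong to this list and to the cancer list. A count per gene can hide separate sites: at RPL26 both lines had peaks in the promoter, but the K562 peak (chr17:8286966-8287013) and the HepG2 peaks (chr17:8286554-8286612 and chr17:8286696-8286767) did not meet, and each counted as in its line only.

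Promoters in clusters of tissue-restricted genes were almost empty. Only the 1 kb upstream of each gene's TSSs was counted, not the gene bodies or the space between genes. By comparison, 37.6% of the coding genes of the chromosome and 43.5% of all coding genes had no interval. In the HOXB cluster, 8 of 10 genes had no interval, HOXB4 had a K562 lower-confidence interval, and HOXB9 had the K562-only peak of 371 bp with 3 motifs, chr17:46703861-46704231, the second widest of its kind in a promoter. HepG2 had no interval at any of the 10. Of 27 type I keratin genes only KRT19, the keratin of simple epithelia, had an interval, of lower confidence in both lines. Of 18 CC chemokine genes only CCL15 had one, of lower confidence in HepG2, and none of the 6 skeletal myosin heavy chain genes did. The myosin cluster lies in a stretch of 2.07 Mb (chr17:8534789-10600834) with 20 coding genes and no peak of either line, although it holds a few lower-confidence intervals.

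**Figure D5:**
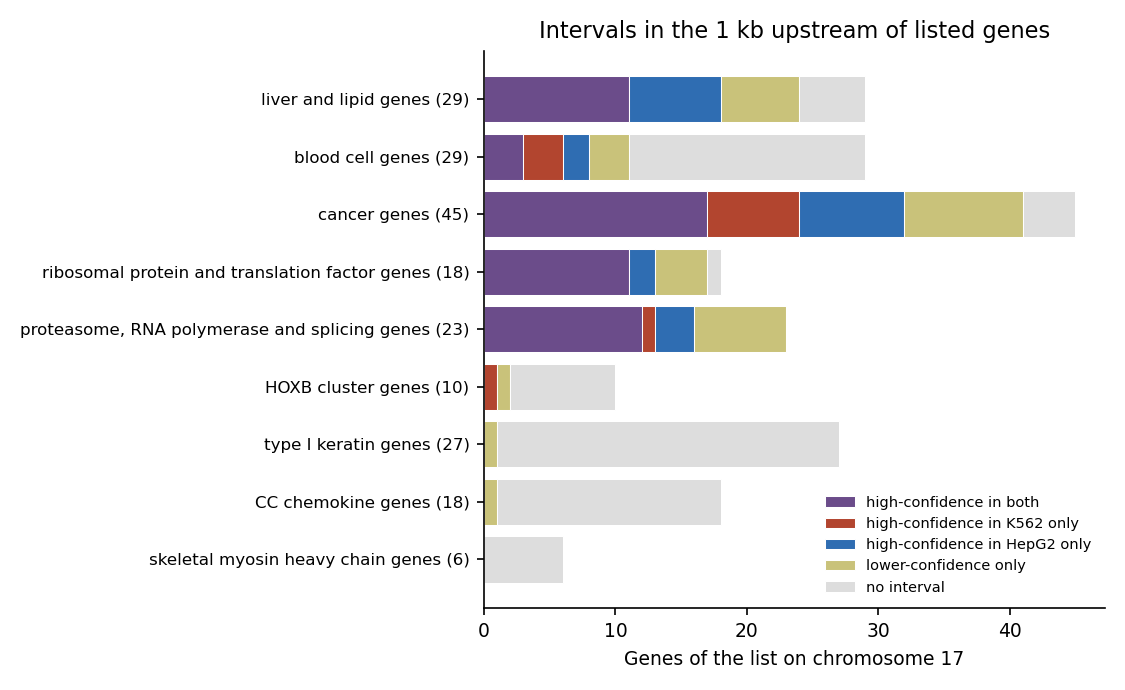
Genes of each list on chromosome 17 (x axis, with their number in parentheses), by the intervals in the 1 kb upstream of their TSSs. Liver and lipid genes have 11 with peaks of both lines, 7 with a HepG2 peak and no K562 peak and 0 the other way round, whereas keratin, chemokine and myosin genes have 0 peaks.

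The longest stretch without an interval of any list measured 3.64 Mb and contains the centromere, where 3.00 Mb of the assembly are unread bases. The next were 3.46 Mb at chr17:49513331-52977936, which holds CA10, KIF2B and TOM1L1 and has 37.4% GC, and 2.68 Mb at chr17:67410882-70089014, which holds the potassium channel genes KCNJ16 and KCNJ2. Beyond the latter begins the longest run of successive peaks in 1 line: 13 HepG2 peaks in a row, from chr17:70116999 to 71064830, had no K562 interval. The run starts at the promoter of SOX9, a transcription factor of progenitor cells in liver ducts and cartilage, and ends within SLC39A11, a zinc transporter gene. Of its 13 peaks, 7 touched a promoter and 2 held a motif. The 7 include short neighbouring peaks of 37, 19 and 19 bp between chr17:71064649 and 71064830, each counted separately. The widest of the 13, chr17:70409341-70409832 with 492 bp, was 292425 bp from SOX9 and the widest HepG2-only peak outside promoters on the chromosome. The next HepG2 runs had 8 peaks at AKAP1 and MSI2 and 7 at TBC1D16 and CCDC40. The run at MSI2 also counts the neighbours chr17:55686758-55686833 and chr17:55686843-55686885 separately. The longest K562 run had 4 peaks over 101669 bp, ending at the SOCS3 promoter (chr17:76356148-76356430) with 2 motifs.

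The region of this chromosome that the study used for quantitative PCR without a G4, chr17:32688573-32688804, overlapped 0 intervals of the 4 lists. The nearest peaks were 489607 bp away in K562 and 789317 bp away in HepG2.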

How the data were processed

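The values used are interval positions in bp, deposited by the authors. According to the methods and labels, reads were trimmed and aligned to hg19, duplicates removed, peaks called with MACS2, and replicates merged with bedtools. No height, count or q-value comes with an interval.

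Intervals were compared on GRCh37 with GENCODE release 44 in its GRCh37 mapping; the study's methods name an earlier release. Overlap means at least 1 bp, and a promoter is the 1 kb upstream of any TSS. Location classes refer to the peak centre, with promoters given precedence, then UTRs, exons and introns. The regions and genes named follow a written rule: listed genes, genes of the 79-80 Mb block, widest and most motif-rich peaks, fragmented intervals, runs, gaps and the control region. The members, lists and rule were chosen with earlier results of these data known, and genes with a peak in 1 line alone, the gene body counts and the RPL26 sites were named after their values were seen. Promoter and motif shares were compared with 16 two-sided Fisher's exact tests, adjusted by the Benjamini-Hochberg method, with a threshold of 0.05; those of the chromosome against others and of the block depend on what they were chosen for, and are given as shares alone. Intervals of odds ratios and their ratios use a normal approximation on the log scale. Functions were tested on simulated data: 6678 overlap calls and 3000 motif calls equalled a direct search in 100% of cases. Python 3.11.15, scipy 1.17.1, pandas and pysam 0.24.0 were used. Some genes and sequences are not reported here.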

Additional observations from a re-analysis of the deposited data

Results flagged for a closer look

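The gap between common peaks and peaks of 1 line only differed between the cell lines. For promoters, the K562 odds ratio of 6.88 stood at 0.335 times the HepG2 odds ratio of 20.5 (95% interval of the ratio 0.169 to 0.665). For motifs, 1.69 in K562 stood at 0.391 times the 4.31 of HepG2 (0.206 to 0.744). On the other chromosomes the odds ratios were 9.07 in K562 and 25.1 in HepG2 for promoters, and 1.39 and 4.18 for motifs. The lower K562 values were thus not particular to chromosome 17. The intervals of the ratios treat the lines as independent, although common peaks are largely the same places in both lines. On chromosome 17, 58.7% of 109 K562-only and 32.2% of 295 HepG2-only peaks touched a promoter, and 25.7% and 11.2% held a motif. Among peaks of 150 to 250 bp the ratios were 0.370 (0.112 to 1.23) and 0.425 (0.138 to 1.31), whose intervals include 1. Replicate numbers and thresholds differed between the lists of the lines, and the part of this in the difference was not tested.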

How the results depend on the processing

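Of 146 alternative values for 35 results, 116 kept the direction and the side of the threshold or stayed within the counting interval. Requiring 50% of a peak to be covered gave common shares of 51.1% in K562 and 42.0% in HepG2. The lower-confidence lists gave common shares of 62.4% and 30%, shares in 1 line only of 37.6% and 70.0%, and a K562 share of intervals of 32.3%. Promoter calls were gained for the K562 arms with 1 kb on both sides of a TSS (odds ratio 3.04) and with the peak centre in the promoter (2.11). The call was lost for the HepG2 arms with 150 to 250 bp (1.44). The promoter odds ratios of the block, given without a test in the text, were 0.319 in K562 and 0.895 in HepG2 with 150 to 250 bp, and 0.796 in HepG2 with both sides of a TSS. The K562 motif difference between common and K562-only peaks passed with loops of 1 to 12 (2.15) and runs of at least 2 G (4.59), but was 1.14 with the lower-confidence interval scanned and 1.34 with 50% of a peak covered. Its ratio to the other chromosomes became 2.39 (1.00 to 5.70) with 150 to 250 bp. The ratios between the lines were no longer past the threshold with 150 to 250 bp (0.370 for promoters, 0.425 for motifs) and, for motifs, with runs of 2 G (0.510). Directions turned among comparisons that had passed no test: K562 against other chromosomes for promoters of coding transcripts (0.963) and runs of 2 G (0.983), the block with runs of 2 G (1.04 in K562, 1.26 in HepG2), loops to 12 (1.08) and 150 to 250 bp (1.33) in HepG2, the HepG2 arms with runs of 2 G (1.08) and lower-confidence intervals scanned (1.03). The ratios of chromosome 17 to the others turned for K562 promoters with coding transcripts (1.02) and 150 to 250 bp (1.05), and for HepG2 motifs without the block (0.993). The causes were not tested.

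No paired analysis was possible because the lists are merged over replicates, which also precluded leaving a replicate out. Depth is unknown, so a missing interval does not show that a G4 is absent.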

Other observations

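Intervals below the high-confidence threshold met the other line in different shares, which depend on how many intervals each list holds. The chromosome was chosen on those numbers, so the shares are described without a test. On chromosome 17, 668 of 1233 K562 lower-confidence intervals contained no peak, and 305 of these (45.7%, 41.9 to 49.5) met a HepG2 lower-confidence interval, against 32.9% on the other chromosomes. In HepG2, 1891 of 2581 contained no peak, and 349 of these (18.5%, 16.8 to 20.3) met a K562 one, against 24.1% on the other chromosomes. RBFOX3, a neuronal splicing factor gene of 427 kb, contained 20 HepG2 and 1 K562 lower-confidence intervals and 0 peaks of either line. CUEDC1 contained 14 HepG2 and 0 K562 intervals, and ITGB4, an epithelial integrin gene, 13 and 2. These genes were named after their values were seen.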
